A study of Homo sapiens with 6 samples.

Results

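The 7 keratin genes KRT7, KRT8, KRT18, KRT19, KRT80, KRT81 and KRT86 were examined in PC-3 cells, a line established from a bone metastasis of prostate adenocarcinoma. They are 7 of the 22 functional keratin genes listed in the tables and 7 of the 19491 genes listed for these libraries. They were selected on measured values, since their levels and differences in these libraries were already known when they were picked, so levels and differences are given here as a description, with no test. The selection was not a cut on level. KRT15 (33.9 CPM, the reads of a gene per 1000000 reads of its library, mean of the 3 groups) and KRT75 (18.2 CPM) are not among the 7, although they exceeded KRT80 (14.2 CPM) and KRT86 (4.14 CPM).

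Keratins are the intermediate filament proteins of epithelial cells. A type I (acidic) keratin pairs with a type II (basic to neutral) keratin, and the pairs assemble into filaments that anchor at desmosomes and hemidesmosomes and give the cell mechanical strength. KRT8 and KRT18 are the type II and type I partners found in almost all simple epithelia, including the luminal cells of the prostate. KRT7 (type II) and KRT19 (type I) are further keratins of simple and ductal epithelia, and KRT80 is a type II keratin of many epithelia. KRT81 and KRT86 are type II hair keratins, best known from the cortex of the hair shaft.

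PC-3 cells were left untreated (control), or were kept for 48 h with 1 mM GPNA (L-γ-glutamyl-p-nitroanilide) or with 10 mM BenSer (O-benzyl-serine). Both compounds are amino acid derivatives used as inhibitors of ASCT2, the glutamine transporter encoded by SLC1A5. All groups were cultured in RPMI 1640 with 10% fetal bovine serum, and water was the diluent of both compounds. The 3 groups therefore stand for 1 cell line and 1 time point, with 1 dose per compound, and the doses differ between the compounds.

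The labels name 6 libraries, 2 per group, with totals between 23077986 and 32178154 reads, and 51.6% to 52.7% of each total came from the listed genes. Libraries of the same group were nearly as alike as read sampling allows. Chi-square per degree of freedom over genes was 1.05 to 1.06 within groups and 5.50 to 20.7 between them. Each group therefore stands as a single sample here, and no p-value is given for a treatment. Each difference is that of log2(CPM + 1) between the group means, which understates the change of genes at low levels. Each 95% interval is an exact (Clopper-Pearson) one on the merged reads of 2 groups and covers counting error only.

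Between them, the 7 genes held 96.8% of the summed CPM of the 22 functional keratins listed. KRT81 was the most abundant by CPM (mean 949 CPM, rank 26 of all genes listed), ahead of KRT19 (719 CPM, rank 39), KRT7 (320 CPM, rank 128), KRT8 (272 CPM, rank 177) and KRT18 (99.4 CPM, rank 907). KRT80 and KRT86 ranked 6670 and 10362. Per kilobase of the canonical transcript, a rough scale for comparing different genes, KRT19 (517 CPM per kb) and KRT81 (492) stood first. They were followed by KRT7 (197), KRT8 (152), KRT18 (70.3), KRT80 (3.67) and KRT86 (1.84). Which transcripts of a gene were present, and reads that fit 2 genes, were not taken into account. The order of the first pair was not the same in every group. The per-kilobase ratio of KRT81 to KRT19 was 1.06 in control cells, 0.812 with GPNA and 0.983 with BenSer. The other 5 kept this order in all 3 groups.

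**Figure D1:**
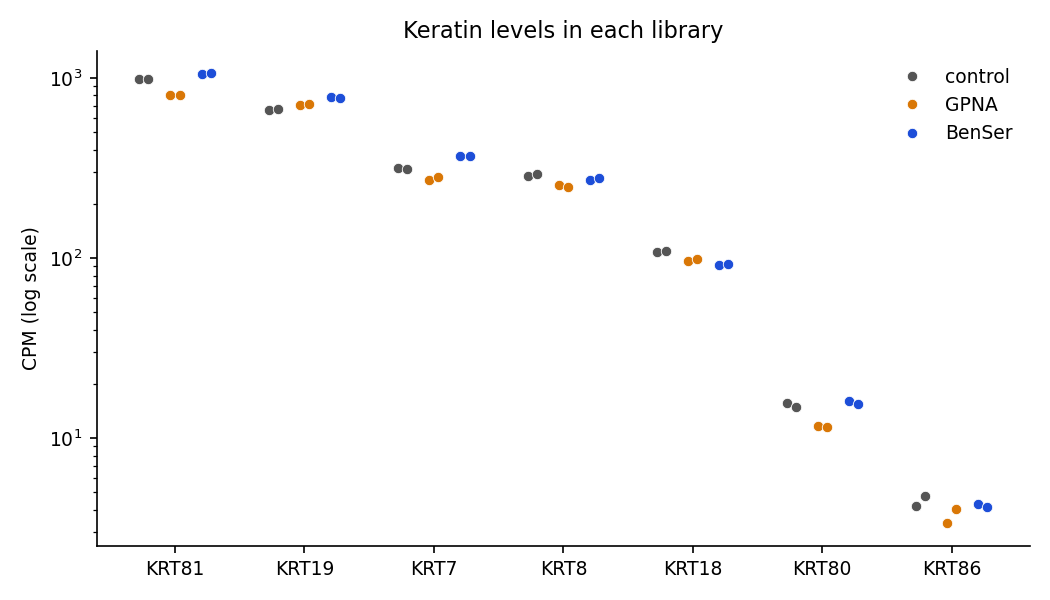
Level of each of the 7 keratins in every labelled library, in CPM on a log axis, with both libraries of each group as separate points. KRT81 lies between 800 and 1063 CPM and KRT86 between 3.37 and 4.77 CPM, and the 2 points of a group lie close together for every gene except KRT86 and, less so, KRT80.

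KRT81 and KRT86 are neighbours on chromosome 12 and share much of their sequence, which bears on how far their reads can be told apart. Positions are those of GRCh37 (GENCODE release 44 lifted to GRCh37, in which 18931 of the 19491 listed genes and 7 of 7 keratins were found). KRT81 (ENSG00000205426, chr12:52679697-52685318, minus strand, 9 exons) lies wholly inside the span of KRT86 (ENSG00000170442, chr12:52643084-52702947, plus strand, 11 exons), but no exon base is shared. The spans of KRT7 and KRT86 overlap by 2887 bases on the same strand, also with no shared exon base. The coding sequences of KRT81 and KRT86, 1515 and 1458 bases long, matched at 1361 of 1454 aligned bases (93.6%). KRT7 and KRT8, the next closest pair among the 7, matched at 72.8%. The second longest identical run inside a single coding exon of KRT81 and KRT86 is shown because a read inside it cannot be placed by sequence alone. It covers 209 bases, in exon 2 of KRT81 (chr12:52683862-52684070, minus strand) and exon 4 of KRT86 (chr12:52696884-52697092, plus strand), and is written in lower case as no base differs.
KRT81 exon 2 and KRT86 exon 4: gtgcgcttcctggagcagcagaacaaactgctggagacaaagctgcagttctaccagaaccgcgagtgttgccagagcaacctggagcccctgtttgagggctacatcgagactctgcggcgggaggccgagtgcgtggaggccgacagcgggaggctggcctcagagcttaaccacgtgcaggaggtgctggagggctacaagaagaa

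Of all 100-base windows of the KRT86 canonical transcript, 25.0% occurred without a mismatch in that of KRT81, and of all 50-base windows 32.8% did. In the other direction the shares were 29.4% and 38.4%. The longest identical run inside a single coding exon of each gene was 309 bases (exon 1 of KRT81 and exon 3 of KRT86). Runs that continue across exon junctions were not searched for, so identical stretches of the spliced transcripts may be longer. How reads that fit both genes were counted, and the read length, are not given in the sources used here. The read ratio of KRT81 to KRT86 was 219 (95% interval 191 to 252) in control cells, 217 (188 to 251) with GPNA and 251 (223 to 284) with BenSer, and KRT86 held 0.182%, 0.166% and 0.159% of keratin reads. The values of KRT86 are therefore uncertain, and whether they include reads of KRT81 was not tested. Whether reads that fit both genes were left out of the KRT81 count was not tested either. The level and rank of KRT81 share this limit. KRT121P, a pseudogene of the same cluster (annotated as KRT87P), was listed at 9.33 CPM and KRT83, a further hair keratin, at 0.325 CPM.

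**Figure D2:**
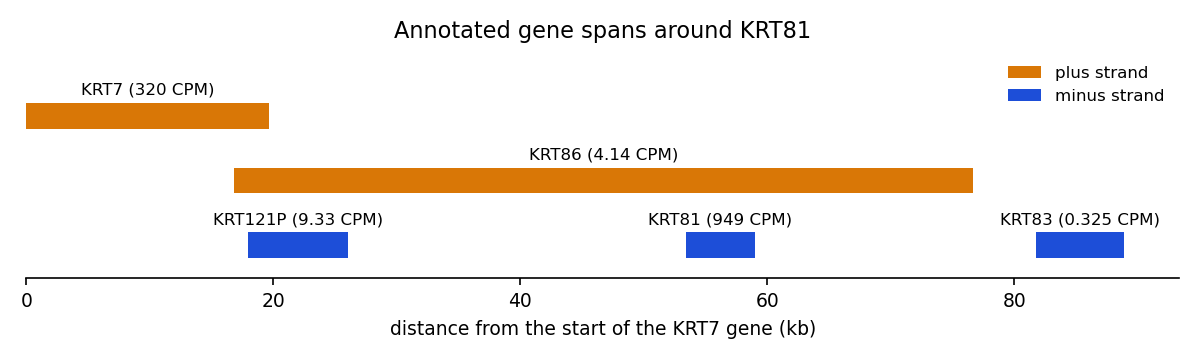
Annotated spans of KRT7, KRT86, KRT121P, KRT81 and KRT83, drawn to scale by distance in kb from the start of the KRT7 gene, with colour for the strand and the mean CPM over the 3 groups above each span. KRT81 (949 CPM) lies within the span of KRT86 (4.14 CPM) on the opposite strand.

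With GPNA, 6 of the 7 keratins were lower than in control cells and 1, KRT19, was higher. None was past 1.5-fold, where 0.404% of the 18828 genes compared were past it in either direction. At a lower limit of 1.2-fold, KRT80 and KRT81 were past it, both lower, against 11.0% of all genes in either direction. Under TMM scaling KRT81 came inside that limit (-0.25). The median difference of the 7 was -0.20 on the log2 scale and that of all genes -0.028. Counting intervals lay below 0 for 5 keratins, above 0 for KRT19 and included 0 for KRT86. Such intervals narrow with depth, and they excluded 0 for 29.9% of all genes compared and for 50.4% of the 7924 genes of at least 10 CPM.

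With BenSer, 4 of the 7 were higher than in control cells and 3 were lower, none past 1.5-fold, where 3.54% of 18976 genes were. None was past 1.2-fold either, where 25.4% of all genes were, although under TMM scaling KRT7 (0.29) and KRT19 (0.26) came past it. The median difference was 0.044 for the 7 and -0.028 for all genes. The median of the 7 was 0.089 under TMM scaling and 0.011 without control replicate 2. Intervals lay above 0 for KRT81, KRT19 and KRT7, below 0 for KRT8 and KRT18, and included 0 for KRT80 and KRT86, while they excluded 0 for 44.0% of all genes and 69.0% of those of at least 10 CPM. Both comparisons use the same control libraries.

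Between the compounds, 6 of the 7 were higher with 10 mM BenSer than with 1 mM GPNA, KRT18 being the exception. None was past 1.5-fold, where 1.87% of 19056 genes were, and 3 were past 1.2-fold (KRT7, KRT80 and KRT81, all higher with BenSer), where 21.4% of all genes were. The median difference was 0.15 for the 7 and -0.0093 for all genes. It was 0.26 without GPNA replicate 2 and 0.27 without KRT86. Counting intervals excluded 0 for 6 of the 7, against 41.9% of all genes and 66.0% of those of at least 10 CPM. The dose and the compound cannot be told apart in this comparison.

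**Figure D3:**
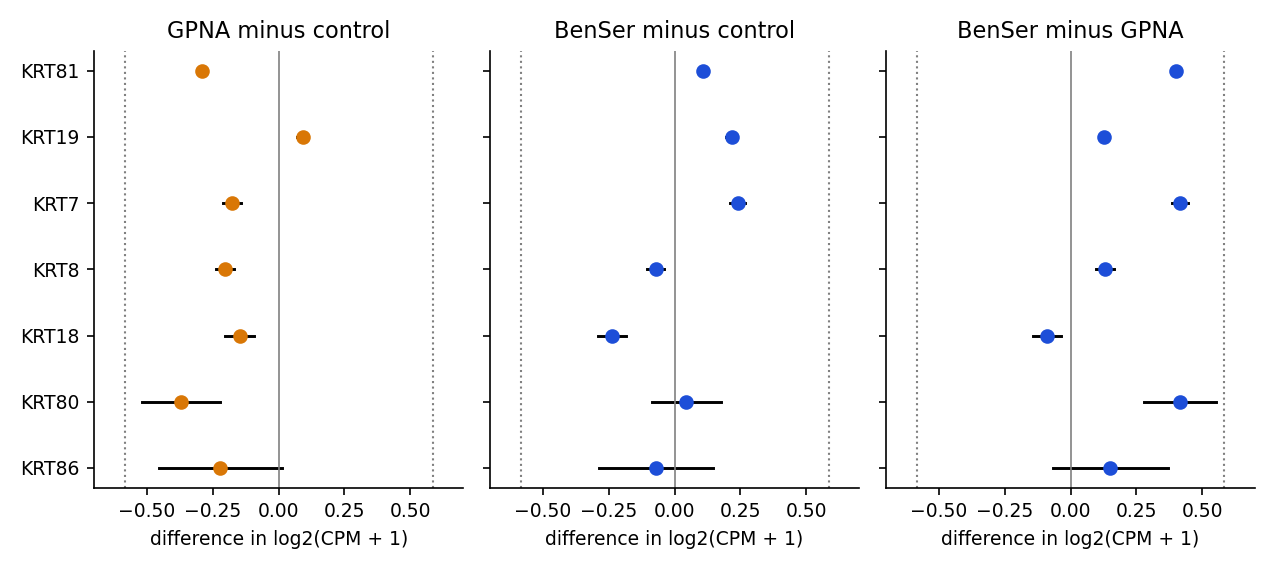
Difference of log2(CPM + 1) for each of the 7 keratins in the 3 comparisons, with the 95% counting interval as a bar (hidden by the point where narrow), a solid line at 0 and dotted lines at 1.5-fold. All 21 points lie between the dotted lines, from -0.37 (KRT80, GPNA minus control) to 0.42 (KRT7, BenSer minus GPNA).

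Among the type II keratins, KRT81 measured 983 and 983 CPM in the control libraries, 800 and 805 CPM with GPNA, and 1057 and 1063 CPM with BenSer. The 3 groups did not overlap, with GPNA lowest and BenSer highest. Lack of overlap, here and for the keratins below, is a description only. Libraries of the same group were so alike that even small differences between groups can separate abundant genes. The share of all genes without overlap was not counted. GPNA minus control was -0.29 (95% interval -0.31 to -0.27), BenSer minus control was 0.11 (0.091 to 0.13), and BenSer exceeded GPNA by 0.40 (0.38 to 0.42), a ratio of 1.32. The 2 libraries of a group differed by at most 0.574% of their mean.

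KRT7 (ENSG00000135480, chr12:52626304-52645970, plus strand) measured 315 and 311 CPM in control cells, 271 and 283 CPM with GPNA, and 369 and 370 CPM with BenSer. The order of the groups was that of KRT81, again with no overlap. The difference was -0.18 (-0.21 to -0.14) with GPNA, 0.24 (0.21 to 0.27) with BenSer and 0.42 (0.39 to 0.45) between the compounds. An antisense RNA, KRT7-AS (ENSG00000257671), covers 13.6% of the exon bases of the canonical KRT7 transcript. It was listed at 8.52 and 9.01 CPM in control cells, 8.64 and 8.997 CPM with GPNA, and 10.8 and 9.74 CPM with BenSer. KRT7 gave 35.7, 31.4 and 36.0 reads per read of KRT7-AS in the 3 groups. The kit marks strand, but whether the counting used it is not given in the sources used here.

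KRT8 (ENSG00000170421, chr12:53290971-53343738, minus strand) measured 287 and 292 CPM in control cells, 255 and 248 CPM with GPNA, and 273 and 278 CPM with BenSer. Control cells were highest and GPNA lowest, and the groups did not overlap. The difference from control was -0.20 (-0.24 to -0.17) with GPNA and -0.072 (-0.10 to -0.040) with BenSer, and BenSer minus GPNA was 0.13 (0.098 to 0.16). The BenSer difference depended on scaling, and was -0.025 under TMM and -0.024 under DESeq2 size factors. Processed copies of KRT8 could share reads with it. The 7 KRT8 pseudogenes listed summed to 6.50 CPM, and those of at least 1 CPM were KRT8P12 (2.76 CPM) and KRT8P46 (1.29 CPM).

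KRT80 (ENSG00000167767, chr12:52562780-52585798, minus strand) measured 15.7 and 14.9 CPM in control cells, 11.7 and 11.5 CPM with GPNA, and 16.1 and 15.5 CPM with BenSer. Both GPNA values were below the other 4, whereas control and BenSer overlapped. Its difference with GPNA, -0.37 (-0.52 to -0.22), was the farthest from 0 of the 7 against control, with 708 reads in control cells and 594 with GPNA behind it. The difference was 0.044 (-0.087 to 0.18) with BenSer and 0.42 (0.28 to 0.55) between the compounds.

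KRT86 measured 4.22 and 4.77 CPM in control cells, 3.37 and 4.05 CPM with GPNA, and 4.29 and 4.16 CPM with BenSer. The libraries of 1 group differed by up to 18.2% of their mean. GPNA values lay below the others, and control and BenSer overlapped. None of its intervals excluded 0, with -0.22 (-0.46 to 0.011) for GPNA, -0.072 (-0.29 to 0.15) for BenSer and 0.15 (-0.067 to 0.37) between the compounds, so a difference was not detectable at this depth (208, 190 and 271 reads).

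Of the type I keratins, KRT19 (ENSG00000171345, chr17:39679869-39684560, minus strand) is unusual in lacking most of the tail domain that other keratins carry. It measured 667 and 670 CPM in control cells, 711 and 713 CPM with GPNA, and 781 and 774 CPM with BenSer. The groups did not overlap, and KRT19 was the only one of the 7 that was higher than control with both compounds. The difference was 0.091 (0.069 to 0.11) with GPNA, 0.22 (0.20 to 0.24) with BenSer and 0.13 (0.11 to 0.15) between the compounds.

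KRT18 (ENSG00000111057, chr12:53342655-53346690, plus strand) is the type I keratin that lies in the type II cluster, next to its partner KRT8. It measured 108 and 109 CPM in control cells, 96.5 and 99.0 CPM with GPNA, and 91.5 and 92.2 CPM with BenSer. The groups did not overlap, and BenSer was lowest, unlike for the other 6. The difference was -0.15 (-0.20 to -0.092) with GPNA, -0.24 (-0.29 to -0.18) with BenSer and -0.089 (-0.14 to -0.035) between the compounds. The annotated exons of KRT8 and KRT18 share 525 bases on opposite strands, which come to 26.5% of the canonical KRT18 transcript and to none of the canonical KRT8 transcript. The 5 KRT18 pseudogenes listed summed to 2.60 CPM, with KRT18P31 at 1.32 CPM.

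The ratio of KRT8 to its partner KRT18 was higher with BenSer, whereas its intervals in control cells and with GPNA overlapped. KRT8 gave 2.67 reads per KRT18 read in control cells (95% interval 2.58 to 2.76), 2.57 (2.49 to 2.66) with GPNA and 2.997 (2.91 to 3.09) with BenSer. Within type I, KRT19 gave 6.16 (5.98 to 6.35), 7.29 (7.07 to 7.50) and 8.46 (8.24 to 8.69) reads per KRT18 read. The highest keratin of each type, KRT81 and KRT19, stood at 1.47 (1.45 to 1.49), 1.13 (1.11 to 1.14) and 1.36 (1.35 to 1.38) reads of KRT81 per KRT19 read. Each ratio is taken within a group and does not depend on library scaling.

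The whole pool of functional keratin reads held a smaller type II share with GPNA. Over all 22 genes, 11 of each type, type II made up 66.5% of keratin reads in control cells (95% binomial interval, Clopper-Pearson, 66.3% to 66.8%), 61.5% (61.3% to 61.8%) with GPNA and 65.5% (65.3% to 65.8%) with BenSer. Summed per kilobase, type II came to 886, 746 and 946 CPM per kb and type I to 584, 610 and 652 CPM per kb, a ratio of 1.52, 1.22 and 1.45. Over the 7 alone, 5 of type II and 2 of type I, the ratio was 1.56, 1.26 and 1.502. KRT81 took 39.9%, 35.9% and 39.8% of keratin reads in control, GPNA and BenSer libraries, and KRT19 took 27.1%, 31.8% and 29.2%. KRT7 took 12.7%, 12.4% and 13.9%, KRT8 11.7%, 11.2% and 10.3%, and KRT18 4.40%, 4.37% and 3.45%. Summed CPM of the 22 genes was 2465 in control cells, 2239 with GPNA and 2662 with BenSer. In such bulk RNA, fewer cells of a kind and less RNA per cell cannot be told apart.

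**Figure D4:**
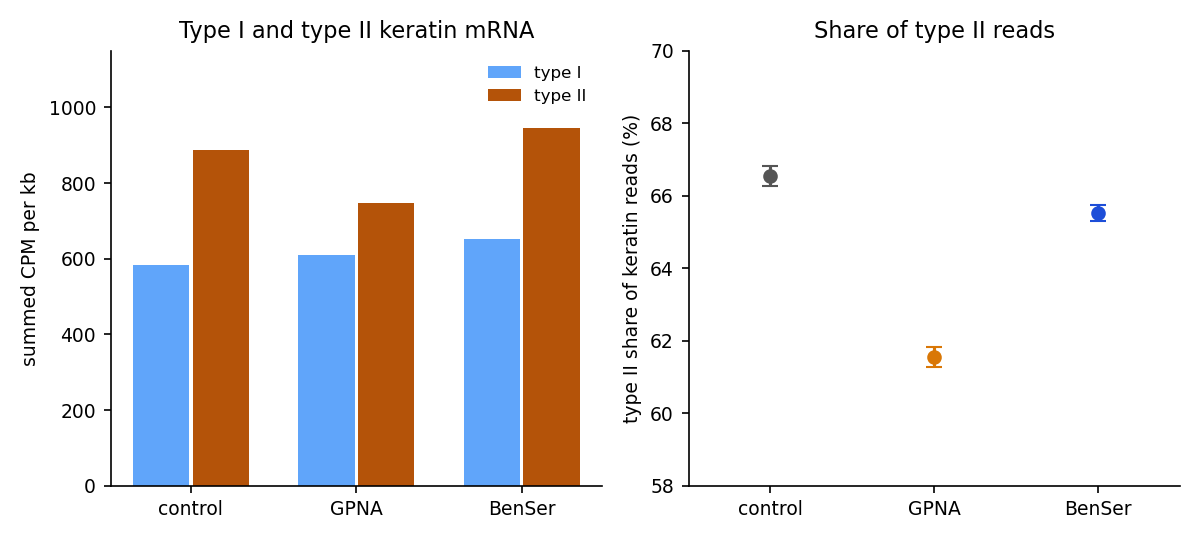
Left, CPM per kb summed over the 11 type I and the 11 type II functional keratins in each group (bars from 0). Right, share of type II among keratin reads in percent with its 95% binomial interval, on an axis from 58 to 70, with GPNA at 61.5% below control at 66.5% and BenSer at 65.5%.

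The other 15 functional keratins were low, 8 at 1 CPM or more and 7 below. With BenSer, 5 of these 8 (KRT75, KRT6B, KRT10, KRT16 and KRT34) had a value farther from control than any of the 7. Of these, KRT75 alone had its whole counting interval beyond the values of the 7. The intervals of KRT6B (-0.74 to -0.19), KRT10 (-0.52 to -0.17), KRT16 (0.013 to 0.57) and KRT34 (-0.52 to -0.044) reached into that range. KRT75, a type II keratin of the companion layer of the hair follicle, measured 24.4 and 23.1 CPM in control cells, 22.6 and 22.7 CPM with GPNA, and 8.70 and 7.95 CPM with BenSer, so that both BenSer values lay far below the other 4. Its difference was -0.067 (-0.18 to 0.049) with GPNA and -1.41 (-1.55 to -1.27) with BenSer, the control level being 2.85 times that with BenSer.

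KRT4, a type II keratin of stratified mucosa, measured 5.38 and 5.42 CPM in control cells, 3.45 and 3.46 CPM with GPNA, and 7.27 and 5.60 CPM with BenSer. Its difference was -0.52 (-0.75 to -0.29) with GPNA, 0.22 with BenSer and 0.74 (0.53 to 0.95) between the compounds, the last past 1.5-fold. KRT15, a type I keratin of basal cells, differed by 0.080 with GPNA and 0.14 (0.051 to 0.24) with BenSer. KRT10, the type I keratin of differentiating epidermis, went from 8.70 CPM in control cells to 8.57 CPM with GPNA and 6.63 CPM with BenSer, a difference of -0.35 for BenSer. KRT6B and KRT34 differed by -0.47 and -0.28 with BenSer, KRT16 by 0.29 and KRT6A by 0.0020, all from levels under 5 CPM.

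**Figure D5:**
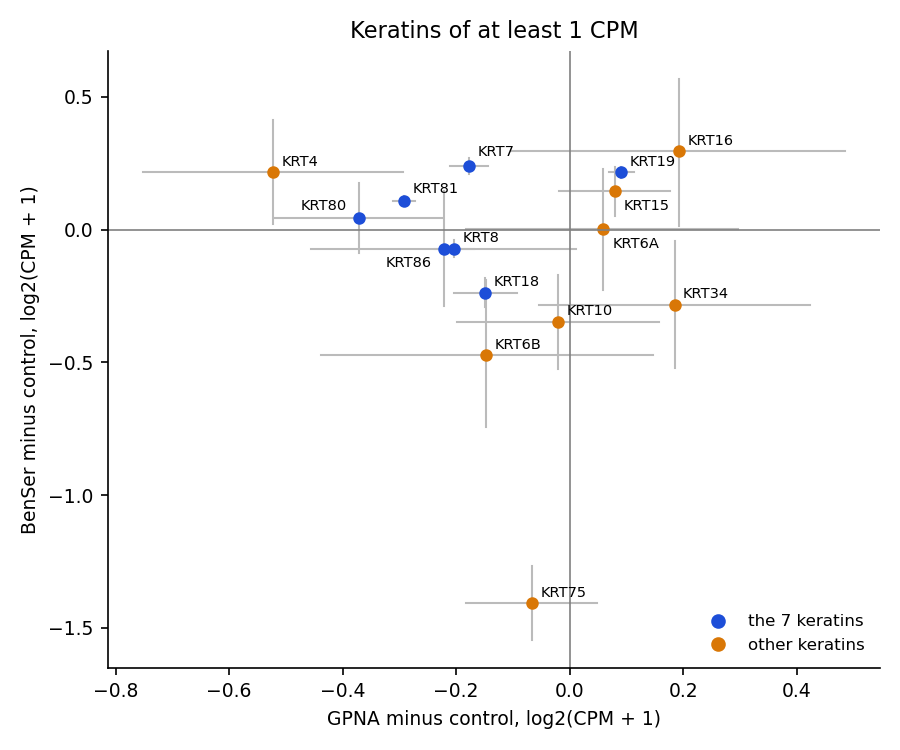
Difference of log2(CPM + 1) from control with GPNA (horizontal) and with BenSer (vertical) for the 15 functional keratins of at least 1 CPM, with 95% counting intervals as grey lines. Both axes share the control libraries. KRT75 stands apart at -1.41 with BenSer, and the 7 keratins (blue) lie within 0.24 of 0 on the vertical axis.

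The keratins were set beside genes of the same cell structures. None of the 12 desmosomal genes listed was past 1.5-fold in any comparison, where 0.404% to 3.54% of all genes were. In each comparison 11 or 12 were compared, and DSG1 was not listed under this name. The medians were -0.021 with GPNA and 0.0069 with BenSer. The largest differences with BenSer were those of PKP2, a plaque protein (-0.45, -0.58 to -0.32), and DSC2, a desmosomal cadherin (0.25, 0.16 to 0.35). Desmoplakin (DSP), to which keratin filaments bind, stood at 189 CPM in control cells, 192 CPM with GPNA and 204 CPM with BenSer.

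Among 13 plakins and keratin linkers, which tie filaments to hemidesmosomes and to the cytoskeleton, none was past 1.5-fold with GPNA (0.404% of all genes) and 2 were with BenSer (3.54% of all genes), both higher. ITGB4, the integrin subunit of hemidesmosomes, was at 195 CPM in control cells, 253 CPM with GPNA and 310 CPM with BenSer, a difference of 0.37 (0.33 to 0.41) and 0.67 (0.63 to 0.70). COL17A1, its transmembrane collagen partner, was at 4.45, 5.88 and 7.91 CPM, a difference of 0.34 (0.12 to 0.55) and 0.71 (0.51 to 0.91). The medians of the list were -0.053 and -0.031.

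Non-keratin intermediate filament genes passed 1.5-fold in 2 of 10 cases with BenSer and in none with GPNA, against 3.54% and 0.404% of all genes. Of the 10 compared, 8 had a value below control with GPNA and 9 with BenSer, not all beyond counting error. Their medians were -0.18 and -0.16, against -0.028 over all genes in both comparisons. DES, INA, NEFH and BFSP2 were not listed under these names. Past 1.5-fold with BenSer were LMNB1, a nuclear lamin (72.0 CPM in control cells, 63.2 with GPNA, 47.4 with BenSer, -0.59 for BenSer), and NES, nestin (162, 134 and 103 CPM, -0.66 for BenSer). Vimentin (VIM), the intermediate filament protein of mesenchymal cells, was at 187, 183 and 144 CPM.

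Of 19 genes of epithelial adhesion and identity, 10 were higher with GPNA and 16 with BenSer. The medians were 0.045 and 0.16, against -0.028 over all genes in both comparisons. None was past 1.5-fold with GPNA (0.404% of all genes) and 3 were with BenSer (3.54% of all genes), all higher. These were ELF3, an epithelial transcription factor (14.4, 19.0 and 31.5 CPM in control, GPNA and BenSer, 1.07 for BenSer), OVOL1, a further epithelial regulator (5.27, 5.47 and 9.54 CPM, 0.75) and OCLN, the tight junction protein occludin (22.3, 23.9 and 36.7 CPM, 0.69). E-cadherin (CDH1) was at 87.3, 92.5 and 123 CPM.

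Of 16 genes for signalling and chaperone proteins chosen for a link to keratins, 13 were lower with GPNA and 10 with BenSer. Binding to keratins was not checked for each. None was past 1.5-fold, where 0.404% and 3.54% of all genes were. The medians were -0.13 and -0.18, against -0.028 over all genes in both comparisons. The share of all genes with lower values was not counted. The largest differences with BenSer were those of STUB1, a ubiquitin ligase (-0.45, -0.61 to -0.29), and FAS, a death receptor (-0.39, -0.63 to -0.14). Between the compounds, 3 genes of the epithelial list (OCLN, OVOL1 and ELF3) and none of the other 4 lists were past 1.5-fold (1.87% of all genes).

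The label of the cells was set beside marker genes. Of 6 markers of simple epithelium, 4 are keratins of the 7 and cannot serve as a check, since they were selected on their values here. EPCAM was at 97.8, 92.3 and 98.8 CPM in control, GPNA and BenSer, and CDH1 as given above. All 6 together summed to 1516 to 1736 CPM per library, most of it from the 4 keratins. The sum is therefore no check either, and cannot be weighed against the sums below. The 6 mesenchymal markers summed to 898 to 1101 CPM per library. Fibronectin (FN1) made up most of that sum and was at 598, 603 and 835 CPM. With BenSer 5 of the 6 had lower values than in control cells (median of the 6 -0.087, against -0.028 over all genes). Of these 5, counting intervals lay below 0 for VIM and CDH2 and included 0 for ZEB1, ZEB2 and TWIST1. Of 8 basal markers, 5 were listed at a sum of 36.9 to 43.3 CPM, most of it KRT15 (mean 33.9 CPM). KRT5, KRT14 and TP63 were not listed under these names. Of 5 neuroendocrine markers SYP was listed (0.689 to 1.43 CPM per library), of 4 endothelial markers KDR (2.09 to 4.32 CPM), and of 5 blood markers none. The part of these shifts in the keratin values was not tested.

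A summary point for the 7 keratins, their median difference with GPNA (-0.20) and with BenSer (0.044), was set beside the 7544 genes of at least 10 CPM in every group. No keratin lies at that point. The 7 were 0.11 (KRT81) to 0.34 (KRT19) from it, and none was within 0.05, whereas 109 genes were. The 5 genes nearest to the point over the 3 groups were RASSF7 (-0.20 and 0.048), TPM3P9 (-0.21 and 0.036), ZMIZ1 (-0.19 and 0.044), CDC34 (-0.19 and 0.040) and ZBED4 (-0.21 and 0.036). They are near the median of the 7 and not near any single keratin.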

How the data were processed

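Total RNA of PC-3 cells was sequenced as stranded paired-end libraries. According to the methods, the authors trimmed the reads, used TopHat2 at default settings to place them on hg19/GRCh37.p13, counted reads per gene, divided by library size and kept genes with 5 reads in at least one group. The submitters' processing notes also name Bowtie2, HTSeq 0.6.2p2 and DESeq. The annotation version and the strand setting of the counting are not given in the sources used here.

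The authors deposited 2 tables of 19491 genes whose value columns are named as counts but hold CPM. Every value (100%, tolerance 0.01 read) was a whole number of reads over the library total, so reads and totals were recovered. Each table has 4 columns per group, whereas 2 libraries per group are labelled. The other 8 column entries (6 distinct) match no label. The methods state 4 replicates per group, so these may be further replicates, which the single sample per group used here leaves out. Keratin values in some of them had been seen before they were set aside, they differed from the labelled columns, and they were not analysed. The deposited log2 fold change, log2 CPM, p-value and false discovery rate columns hold the authors' comparisons and were not used.

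The 2 labelled libraries of a group were merged and counted as 1 sample, so a gene counted as called when past 1.5-fold (a limit of 1.2-fold was also given) in log2(mean CPM + 1), for genes whose mean reached 5 reads in 1 of the groups compared. A library's limit for a count of 0 was 3 reads, 0.0932 to 0.130 CPM. Intervals, at 95%, cover counting error only. Members and lists were chosen with earlier results of these data known. Named were the 7 keratins, other keratins, member pseudogenes and overlapping genes of at least 1 CPM, list genes past 1.5-fold or else the 2 with the largest difference with BenSer, marker lists, and the 5 genes nearest in pattern. DSP, VIM and CDH1 were added after their values were seen.

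Alternatives were other pseudocounts, filters, scalings and thresholds, libraries left out, and fits with limma 3.58.1, edgeR 4.0.16 and DESeq2 1.42.0 in R 4.3.3, in which the 2 libraries stood as separate samples. These fits compare libraries, not treatments. At a false discovery rate of 0.05, edgeR's quasi-likelihood test on the recovered reads called 3180 genes for GPNA, 7031 for BenSer and 6625 between the compounds. Other steps used Python 3.11.15, pandas 2.3.3 and scipy 1.17.1. On simulated reads for the GPNA comparison, 200 of 18458 genes, drawn from those with enough control reads, were changed 2-fold. The 1.5-fold rule recovered 182 of the 200 with 0 false calls. Genes at low levels fall short of the limit under the pseudocount of 1. Of changed genes of at least 5 CPM, a split made after that result was seen, 142 of 145 were recovered. The simulated reads varied by read sampling only, so false calls from variation between cultures could not arise. Every keratin difference was under 1.5-fold, so recovery of 2-fold changes does not bear on changes of their size. Sequences were read from the GENCODE transcripts and GRCh37 annotation. Among promoter sequences, 1 of the 7 genes matched, and none is shown. One marker list and one stretch of sequence are not reported here.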

Additional observations from a re-analysis of the deposited data

How the results depend on the processing

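No median changed sign under the alternatives run. No keratin passed 1.5-fold in any comparison under other pseudocounts, filters, scalings or fits, with a library left out, or at a 2-fold limit, whereas a 1.2-fold limit gave 2 keratins for GPNA minus control, 0 for BenSer minus control and 3 for BenSer minus GPNA. The median for GPNA minus control, -0.20, became -0.16 under TMM scaling, -0.17 under DESeq2 size factors, -0.17 in the edgeR fit and -0.17 in the DESeq2 fit, and that for BenSer minus control, 0.044, became 0.089, 0.090, 0.093 and 0.093. These scalings moved the median of all genes upwards by about 0.03 in both comparisons, but not every gene by the same amount. With BenSer under TMM scaling, KRT7 went from 0.24 to 0.29 and the median of all genes from -0.028 to 0.0028. Leaving out 1 library gave -0.22 to -0.15 for GPNA minus control, 0.011 to 0.079 for BenSer minus control and 0.14 to 0.26 for BenSer minus GPNA. Without control replicate 2 the BenSer minus control median was 0.011, without BenSer replicate 1 it was 0.021, without BenSer replicate 2 it was 0.067 and without control replicate 1 it was 0.079. Without GPNA replicate 2 the BenSer minus GPNA median was 0.26, and without KRT86 it was 0.27. The KRT86 difference for BenSer was -0.14 without control replicate 1 and changed sign, to 0.0019, without control replicate 2. Of 315 single-keratin values under the alternatives, 278 stayed inside the counting interval of the main value and 37 fell outside it. Of these 37, 35 came with another scaling and 2 with a library left out. Those scalings were TMM, DESeq2 size factors, the edgeR and DESeq2 fits that use them, and the sum of listed genes. Deviations of same-numbered libraries of different groups had correlations of 0.041, 0.061 and 0.070 over 7441 genes. Within groups, chi-square per degree of freedom was 1.05 to 1.06, so nearly all of these deviations were counting noise. Low correlations can then arise with or without pairing, and this check cannot decide whether the numbers pair the libraries. With the replicate block in limma the keratin medians were -0.20, 0.045 and 0.15, and the genes called at a false discovery rate of 0.05 went from 545 to 3 for GPNA, from 5278 to 4534 for BenSer and from 4177 to 3267 between the compounds. At this depth KRT86 limits what can be told, with 190 to 271 reads per group.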

Other observations

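Other genes with keratin in their names were also measured. KRTAP2-3, which encodes a keratin-associated protein of the hair shaft matrix, was listed at 5.38 and 3.94 CPM in control cells, 3.76 and 4.36 CPM with GPNA, and 1.49 and 1.44 CPM with BenSer. Both BenSer values lay below the other 4. Its difference on the log2(CPM + 1) scale was -0.16 (95% counting interval -0.39 to 0.065) with GPNA and -1.20 (-1.43 to -0.96) with BenSer. It was chosen after its values were seen. KRTCAP2, a subunit of the oligosaccharyltransferase complex despite its name, was at 2.28 and 2.17 CPM in control cells, 2.05 and 2.44 CPM with GPNA, and 1.80 and 2.32 CPM with BenSer, and the 3 groups overlapped.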
